A study of Mus musculus with 23 samples.

Results

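The Slc25a genes encode the mitochondrial carrier family, the largest group of solute transporters in the inner mitochondrial membrane. Members were taken by symbol, as every deposited feature named Slc25a followed only by digits. This gave 47 of 43154 features, and the 39 that reached 1 FPKM (fragments of a transcript scaled to its length and to the library's size) in at least 3 of the 23 libraries are described by substrate. The other 8 (Slc25a2, Slc25a18, Slc25a21, Slc25a31, Slc25a41, Slc25a43, Slc25a48 and Slc25a54) did not reach that level. Just inside it lay Slc25a53, at 1 FPKM or more in 19 libraries, and Slc25a14, in 22, and just outside it lay Slc25a31, whose highest value was 0.705 FPKM. The remaining 37 were at 1 FPKM or more in all 23.

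These carriers share a fold of repeated membrane-spanning segments and alternate between a state open to the cytosol and one open to the matrix, usually exchanging one solute for another. In heart muscle the ADP/ATP carriers and the phosphate carrier supply the substrates of ATP synthase and export its product. Other members carry acylcarnitine for fatty acid oxidation, run the malate-aspartate shuttle for cytosolic NADH, or bring in cofactors, iron and amino acids.

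RNA came from hearts of C57BL/6 mice, either wild type (WT) or carrying the transgene MHC-CnAtg, in which a myosin heavy chain promoter drives calcineurin in heart muscle cells (CnAtg below; genotype label calcineurin transgenic). Calcineurin is a calcium-dependent phosphatase that activates NFAT transcription factors and causes hypertrophic growth. Treated mice were given JIB-04, which inhibits histone demethylases of the Jumonji family, in 3 doses of 50 mg/kg each week, and controls were given vehicle. Hearts were taken at postnatal day 45, with dosing of CnAtg mice from week 4 of age, or at day 77, with dosing from week 5, so age and time on drug change together. Day 45 has 3 libraries for each pairing of genotype and treatment. Day 77 has 4 libraries from CnAtg mice on vehicle, 4 from CnAtg mice on JIB-04 and 3 from WT mice on JIB-04. The series description gives WT mice vehicle only, while sample labels assign WT hearts to JIB-04 at both ages, and the groups here follow the sample labels. The start of dosing of WT JIB-04 mice is not stated, and a day-77 WT vehicle group was not analysed here. WT hearts under JIB-04 have sample names numbered separately from the rest, so any difference in their handling cannot be told apart from the comparisons that use them. Labels do not state that each library is a separate mouse, and p-values therefore measure the spread between libraries.

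Ppp3ca, the catalytic subunit gene that the transgene resembles, lay at 1415 to 1987 FPKM in CnAtg and 23.6 to 29.0 FPKM in WT libraries. Summed over all features, CnAtg libraries held 564747 to 596427 FPKM and WT libraries 690160.4 to 852688 FPKM, and genes encoded in mitochondrial DNA took 15.5 to 17.4% of this in CnAtg and 20.8 to 27.1% in WT. One library, WT JIB-04 day 45 replicate 2, had both the highest sum and the lowest mitochondrial share among WT; without it the WT ranges were 690160.4 to 777906 and 24.1 to 27.1%. These sums differ between the genotypes, so the direction of a small difference depends on how libraries are scaled. In bulk heart RNA, fewer cells of one type and less RNA per cell cannot be told apart.

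Carrier transcripts were very unequal. Averaged over the 23 libraries, Slc25a4 (ADP/ATP carrier 1, the main isoform of heart and skeletal muscle) stood at 1325 FPKM and Slc25a3 (the phosphate carrier) at 838 FPKM, and together they made 61.8 to 69.6% of all Slc25a FPKM in a library. Next came Slc25a5 (ADP/ATP carrier 2) at 241 FPKM and Slc25a11 (the 2-oxoglutarate/malate carrier) at 235 FPKM. Slc25a20 (the carnitine/acylcarnitine carrier) at 81.8, Slc25a12 (aralar, the aspartate/glutamate carrier of muscle and brain) at 80.1 and Slc25a34 (no settled substrate) at 70.8 FPKM followed. The lowest that passed was Slc25a14 (also called UCP5) at 1.56 FPKM.

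The promoter windows of 4 genes are shown because these carry the transgene results below: Slc25a4, Slc25a20 and Slc25a34 were lower and Slc25a36 was higher in CnAtg hearts as deposited. Each runs from 250 bases before to 50 bases after the gene start of RefSeq (build GRCm38.p6), 5′ to 3′ on the gene's strand. Windows lie at chr8:46211013-46211312 (minus strand, Slc25a4), chr9:108661886-108662185 (plus strand, Slc25a20), chr4:141623785-141624084 (minus strand, Slc25a34) and chr9:97110992-97111291 (minus strand, Slc25a36). Capitals mark every match, on either strand, to an ETS/GABP site CCGGAAG, an estrogen-related receptor (ERR) half-site AAGGTCA, an E-box CACGTG, an NRF1 core CGCATGCG, an NFAT site TGGAAA or a TATA box TATAAA.
Slc25a4: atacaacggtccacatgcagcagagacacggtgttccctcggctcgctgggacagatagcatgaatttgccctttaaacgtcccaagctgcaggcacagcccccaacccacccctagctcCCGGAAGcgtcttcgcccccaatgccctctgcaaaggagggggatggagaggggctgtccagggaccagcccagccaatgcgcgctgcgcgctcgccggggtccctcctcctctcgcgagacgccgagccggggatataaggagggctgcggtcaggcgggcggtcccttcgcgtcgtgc
Slc25a20: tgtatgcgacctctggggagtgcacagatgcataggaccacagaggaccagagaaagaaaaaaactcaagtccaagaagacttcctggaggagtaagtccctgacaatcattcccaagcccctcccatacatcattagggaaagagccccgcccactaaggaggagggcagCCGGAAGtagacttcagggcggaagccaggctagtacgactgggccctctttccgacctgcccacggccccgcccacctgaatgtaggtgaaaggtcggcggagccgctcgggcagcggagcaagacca
Slc25a34: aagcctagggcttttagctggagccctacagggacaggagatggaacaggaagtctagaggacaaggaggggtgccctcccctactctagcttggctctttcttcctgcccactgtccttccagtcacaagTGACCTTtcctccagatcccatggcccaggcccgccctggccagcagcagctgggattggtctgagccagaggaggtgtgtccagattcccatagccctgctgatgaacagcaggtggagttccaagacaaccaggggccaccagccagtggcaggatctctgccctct
Slc25a36: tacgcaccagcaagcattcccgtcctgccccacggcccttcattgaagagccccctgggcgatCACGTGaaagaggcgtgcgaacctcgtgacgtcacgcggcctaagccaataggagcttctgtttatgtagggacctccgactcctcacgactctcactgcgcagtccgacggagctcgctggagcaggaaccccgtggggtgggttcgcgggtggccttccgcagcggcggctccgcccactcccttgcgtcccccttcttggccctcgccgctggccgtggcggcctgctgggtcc

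In these 4 windows the ETS/GABP letters occur in Slc25a4 and Slc25a20, the ERR half-site (as TGACCTT, its reverse complement) in Slc25a34, and the E-box in Slc25a36. Most of the Slc25a4 window, with its ETS/GABP letters, lies inside the deposited gene, which reaches to 46211284. Of the 39 carriers, 30 had at least 1 window in the RefSeq table. ETS/GABP letters were found in 20% of those 30 against 9.93% of 27025 genes, the E-box in 20% against 8.09%, and the GC box GGGCGG (left in lower case above) in 90% against 38.2%. For the ERR half-site the shares were 3.33% (Slc25a34 only) against 5.38%, for NFAT 13.3% against 23.9%, for the NRF1 core 0% against 2.07% and for TATAAA 0% against 15.7%. The 27025 genes are all those with a window, whether or not expressed in these hearts, while the 30 carriers had passed the expression level. The shares are therefore not matched for expression. These are letter matches, and no binding was measured.

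The comparison of CnAtg with WT hearts under vehicle at day 45 asked how the transgene alone changed the carriers. As deposited, the muscle ADP/ATP carrier Slc25a4 and the phosphate, acylcarnitine, oxoglutarate/malate, dicarboxylate and aspartate/glutamate carriers passed the test downwards, while the pyrimidine nucleotide carrier Slc25a36, the branched-chain amino acid carrier Slc25a44 and the glutathione-linked Slc25a40 were higher. With limma and Benjamini-Hochberg adjustment over all features tested, at an adjusted p under 0.05, 8 of the 39 carriers were higher and 13 lower, beside 23.3% of all 13289 features higher and 15.9% lower. Their median log2 difference was -0.15 against 0.07 for all features. The direction of the family median depended on scaling: on a TPM scale (each library set to the same FPKM sum) it was 0.09, with 14 carriers higher and 3 lower, but all features then had a median of 0.30, so the carrier median lay below that of all features on either scale. Of the carriers just named as lower, Slc25a4 alone was still called on the TPM scale, while the 3 named as higher were all called there.

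The 2 further contrasts of CnAtg with WT, both under JIB-04, shared no library with the first or with each other. At day 45, 7 carriers were higher and 12 lower (median -0.13), beside 20.5% and 18.1% of all features (median 0.02). At day 77, 7 were higher and 18 lower (median -0.16), beside 19.9% and 22.1% of all features (median -0.01). On the TPM scale the higher and lower counts were 14 and 1 at day 45 and 15 and 5 at day 77, with carrier medians of 0.18 and 0.14 against 0.35 and 0.33 for all features. The shares of all features called that are given above are as deposited. They are no background for counts on the TPM scale. Carriers that passed on the TPM scale but not as deposited were all higher: Slc25a5, Slc25a23, Slc25a32, Slc25a38, Slc25a39 and Slc25a51 under vehicle at day 45, Slc25a1, Slc25a5, Slc25a25, Slc25a38, Slc25a39, Slc25a46 and Slc25a47 under JIB-04 at day 45, and Slc25a5, Slc25a15, Slc25a17, Slc25a27, Slc25a32, Slc25a38, Slc25a46 and Slc25a51 at day 77. Below, a carrier said to pass in none did so as deposited. Non-overlap of the 2 groups of a contrast was common among all features. It held for 6587 of 13289 under vehicle at day 45, 6716 of 13289 under JIB-04 at day 45 and 5951 of 13212 at day 77. Statements below that groups did not overlap are to be read beside these counts. No such count was made for all libraries of each genotype together.

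By class, the calls under vehicle at day 45 were 0 higher and 1 lower of 5 adenine nucleotide carriers, 1 and 2 of 3 di- and tricarboxylate carriers, 2 and 2 of 9 amino acid and glutathione carriers, and 1 and 3 of 9 carriers of cofactors and other nucleotides. Under JIB-04 these counts were 1 and 1, 0 and 2, 1 and 2, and 3 and 3 at day 45, and 2 and 1, 1 and 2, 2 and 5, and 1 and 4 at day 77. As deposited, 12 carriers were lower in all 3 contrasts (among them Slc25a3, Slc25a4, Slc25a10, Slc25a11, Slc25a12, Slc25a13, Slc25a20, Slc25a26, Slc25a34, Slc25a37 and Slc25a42), and 3 were higher in all 3 (Slc25a35, Slc25a36 and Slc25a44). Of the 12989 features tested in every contrast, 12.5% were lower and 14.1% higher in all 3. No carrier passed in opposite directions, 15 passed in 1 or 2 contrasts, and 9 passed in none. Leaving out mitochondrially encoded and hemoglobin genes and rescaling ended the JIB-04 day-45 calls of 8 carriers, among them Slc25a10, Slc25a11, Slc25a12, Slc25a13, Slc25a26, Slc25a34 and Slc25a37, with Slc25a3 at 0.0003. Counts of higher carriers varied with the library left out, in fits that also held fewer libraries. Under vehicle at day 45 they were 4 without CnAtg replicate 1 and 5 without WT replicate 3 or CnAtg replicate 2, and the lower count was 8 without WT replicate 1, WT replicate 3 or CnAtg replicate 2. Under JIB-04 at day 45 the higher count was 3 without WT replicate 3 and 4 without WT replicate 2, CnAtg replicate 1 or CnAtg replicate 2, and at day 77 it was 3 without WT replicate 2.

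**Figure D1:**
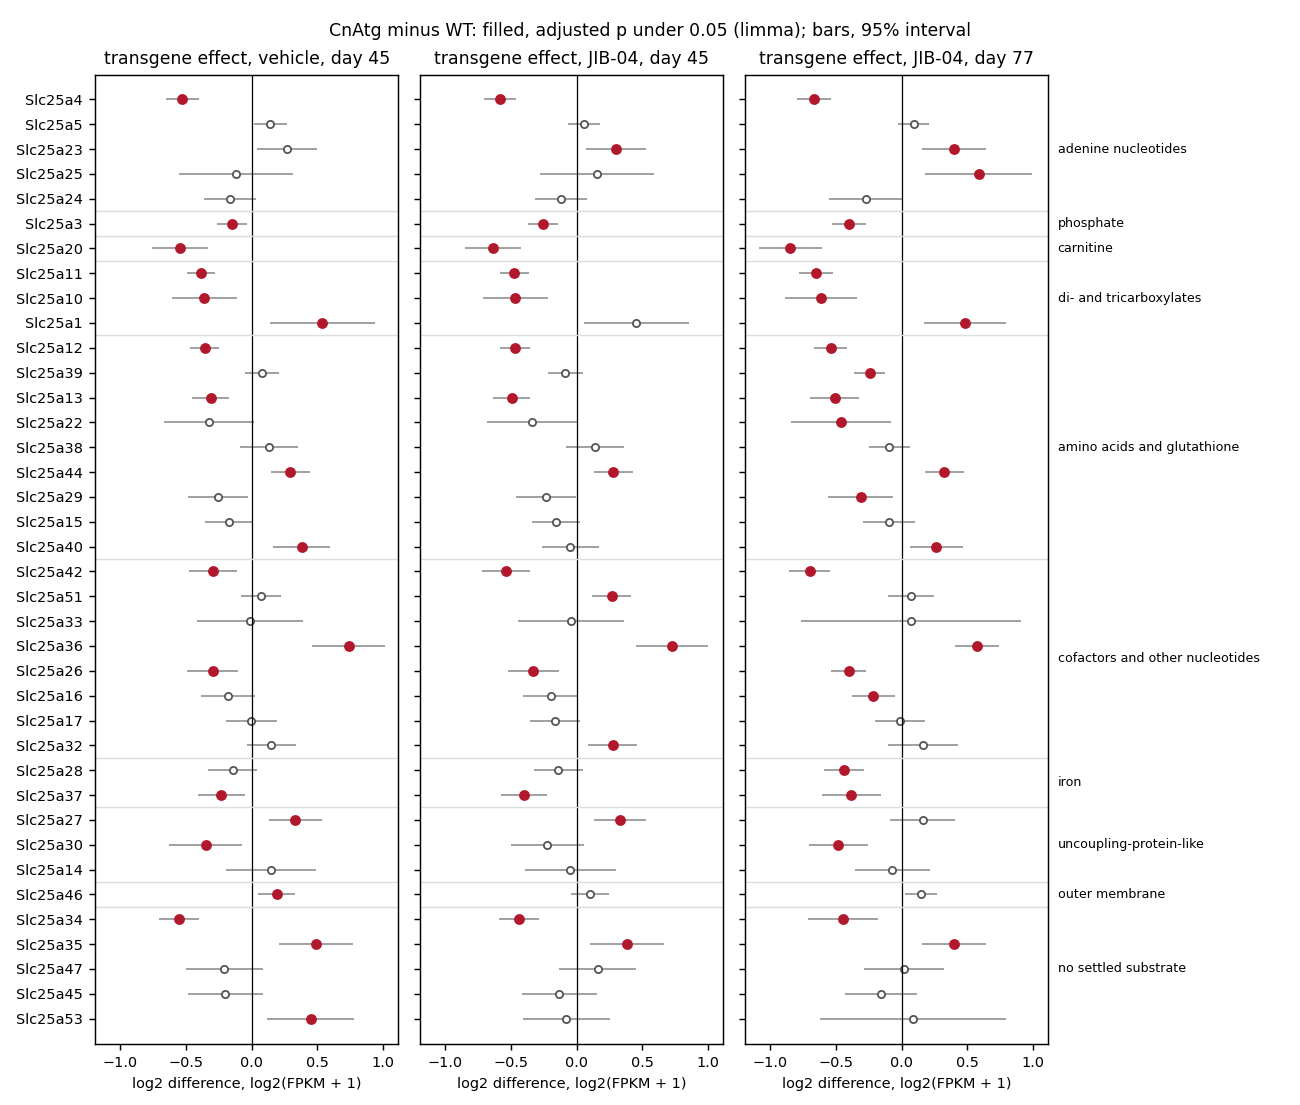
Log2 difference of CnAtg minus WT on the log2(FPKM + 1) scale for 38 carriers (rows, grouped by substrate) in 3 contrasts; bars are 95% intervals and filled points passed at an adjusted p under 0.05 (limma). As deposited, Slc25a4, Slc25a3, Slc25a20, Slc25a11 and Slc25a12 lie left of 0 in all 3 panels (Slc25a3 turns to 0.12 and 0.13 at day 45 on the TPM scale), and Slc25a36 and Slc25a44 lie right of 0 in all 3.

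**Figure D2:**
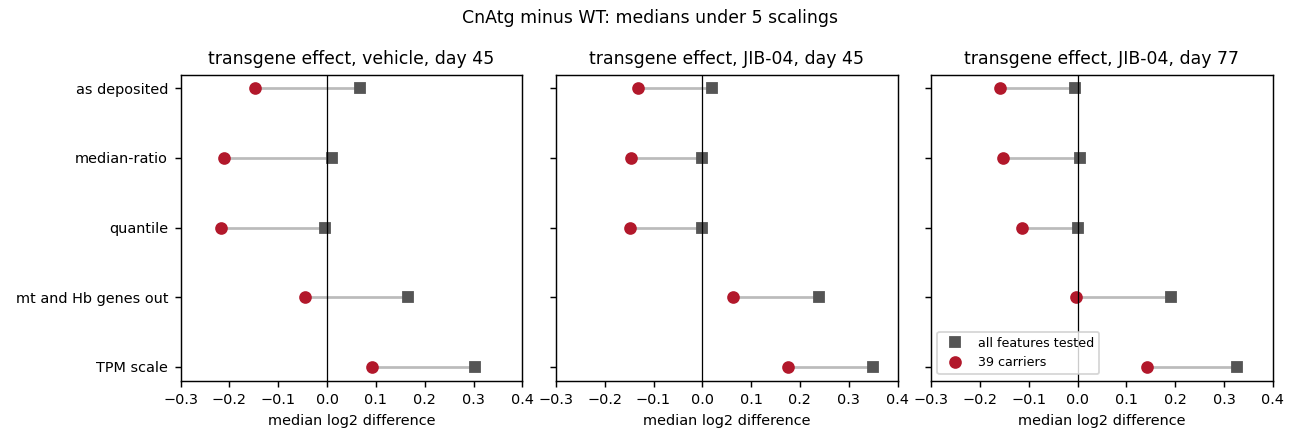
Median log2 difference of CnAtg minus WT for the 39 carriers (circles) and for all features tested (squares) under 5 scalings of the libraries, in 3 contrasts. Both medians move together, and the carrier median is left of the all-feature median in every row.

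Among adenine nucleotide carriers, Slc25a4 (chromosome 8, 46206797 to 46211284) exchanges cytosolic ADP for matrix ATP. In WT libraries it stood at 1607, 1544 and 1567 FPKM under vehicle and 1660.2, 1804 and 1578 under JIB-04 at day 45, and at 1712, 1798 and 1710.4 under JIB-04 at day 77. In CnAtg libraries it stood at 1061, 1135 and 1076 under vehicle and 1168, 1087 and 1108 under JIB-04 at day 45. At day 77 the CnAtg values were 1211, 996, 1153 and 1120.3 under vehicle and 1098, 1089.7, 1093 and 1099.5 under JIB-04. Every CnAtg library was below every WT library. The fitted differences were -0.53 (SE 0.056) under vehicle at day 45, -0.58 (SE 0.056) under JIB-04 at day 45 and -0.67 (SE 0.060) under JIB-04 at day 77 on the log2 scale, with adjusted p of 2.5e-05, 1.23e-05 and 7.2e-06 (limma). It was also called lower under each scaling tried and without each library in turn.

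Slc25a5 (chromosome X, 36795651 to 36798807), the more widely expressed ADP/ATP carrier, stood at 242, 218 and 219.7 FPKM in WT and 243, 260.4 and 246 in CnAtg under vehicle at day 45. Group means under JIB-04 at day 77 were 234 ± 12.3 FPKM (SD, n = 3) in WT and 249.9 ± 14.3 FPKM (SD, n = 4) in CnAtg. No contrast passed as deposited (log2 differences 0.14, 0.06 and 0.09, adjusted p 0.0698, 0.474 and 0.197, limma). On the TPM scale it was called higher in all 3 (log2 0.41, 0.43 and 0.48, adjusted p 0.00329, 0.00185 and 3.83e-05, limma), and under vehicle also without WT replicate 1 (adjusted p = 0.0243). It was called higher too under vehicle with all 23 libraries in the fit (0.0497) and at day 77 with quantile normalization (0.0213). With mitochondrially encoded and hemoglobin genes left out, it was called higher under JIB-04 at day 45 (0.028) and day 77 (0.00072, limma). Slc25a5 made 10.9 to 13.1% of the summed FPKM of Slc25a4 and Slc25a5 in the 9 WT libraries and 16.9 to 20.2% in the 14 CnAtg libraries, with no overlap. A share within a library does not depend on how libraries are scaled. The level of Slc25a5 is uncertain, because 46.6% of the 50-base windows of its GENCODE M21 transcript occur also in 9 other genes, among them the gene models Gm5560, Gm5529 and Gm5256, and how reads with several matches were counted is not stated.

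The ATP-Mg/phosphate carriers, which are regulated by calcium and shift the total adenine nucleotide pool, gave mixed results. Slc25a23 averaged 27.8 ± 3.15 FPKM (SD, n = 3) in WT and 33.6 ± 3.04 FPKM (SD, n = 3) in CnAtg under vehicle at day 45 and did not pass (0.27, SE 0.10, adjusted p = 0.0622); under JIB-04 it was higher at both ages (0.30, SE 0.10, adjusted p = 0.0429 at day 45 and 0.40, SE 0.11, adjusted p = 0.0127 at day 77, limma). The vehicle difference did pass with sex as a covariate (adjusted p = 0.0349) and without WT replicate 3 (0.037) or CnAtg replicate 3 (0.0371, limma). The day-45 JIB-04 call ended without WT replicate 1, 2 or 3 or CnAtg replicate 1 or 2 (adjusted p 0.0568 to 0.17), and the day-77 call without WT replicate 2 (adjusted p = 0.0572). Slc25a25 was higher at day 77 (log2 difference 0.58, SE 0.19, adjusted p = 0.0251, limma), a call that ended without WT replicate 1 or 3 or CnAtg replicate 2 or 3 (adjusted p 0.0568 to 0.107). Slc25a24 passed in none (log2 differences -0.16, -0.12 and -0.27).

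**Figure D3:**
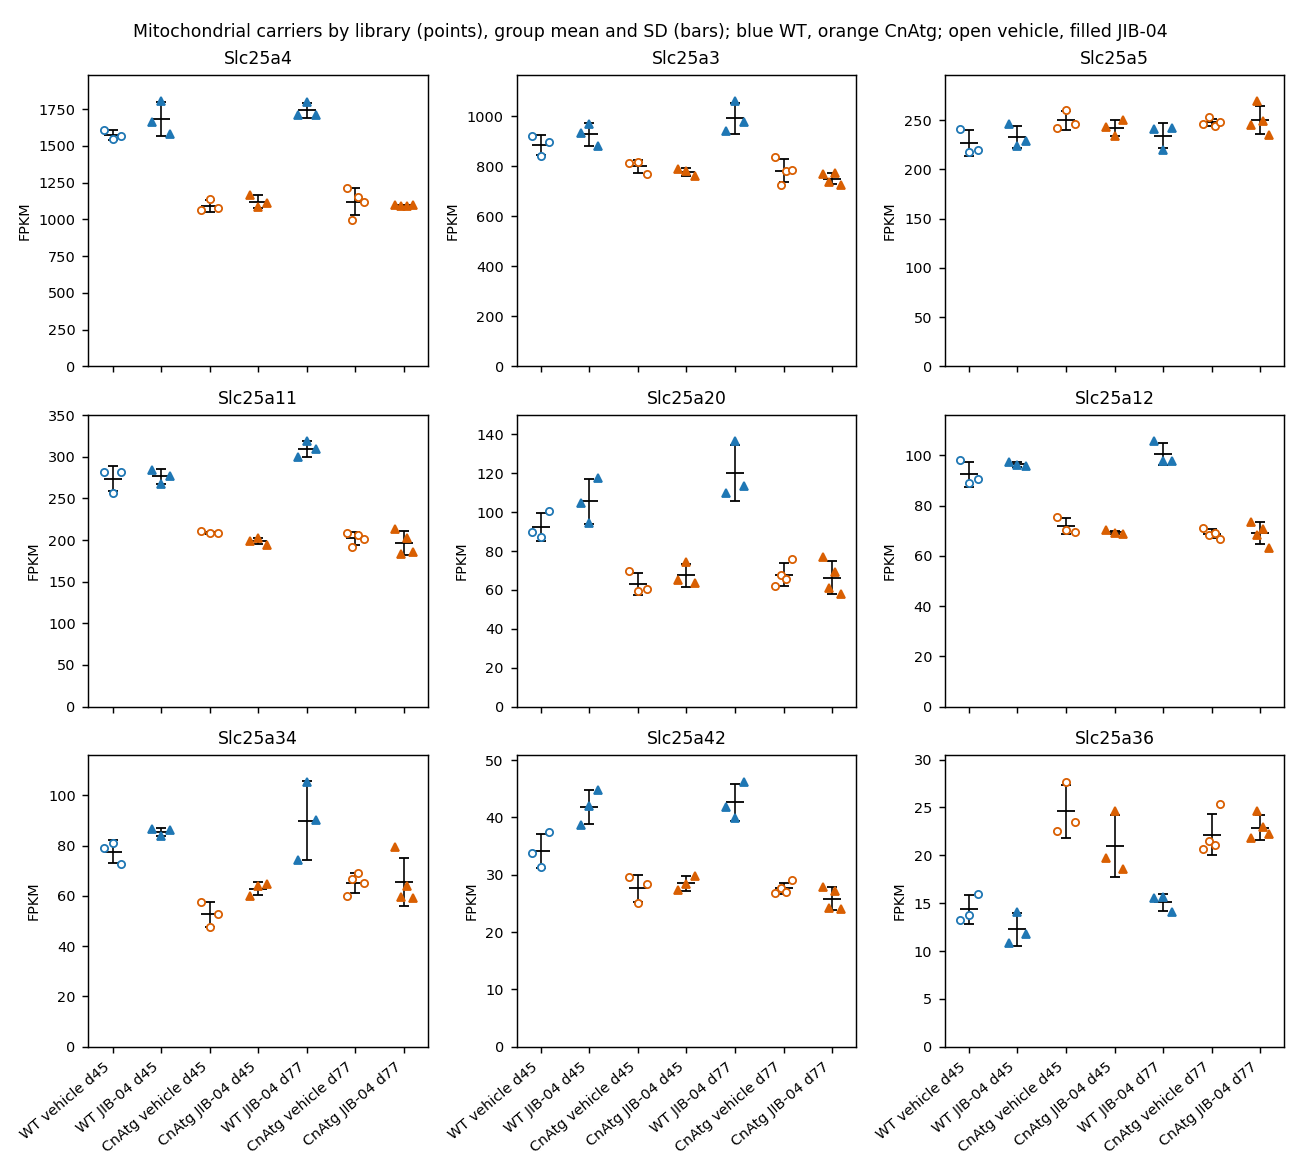
FPKM of 9 carriers in each of the 23 libraries by group, with group mean and SD; WT in blue, CnAtg in orange, vehicle as open circles and JIB-04 as filled triangles. Slc25a4, Slc25a11, Slc25a12 and Slc25a20 are lower in every CnAtg library than in any WT library, Slc25a36 is higher, and Slc25a5 overlaps.

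**Figure D4:**
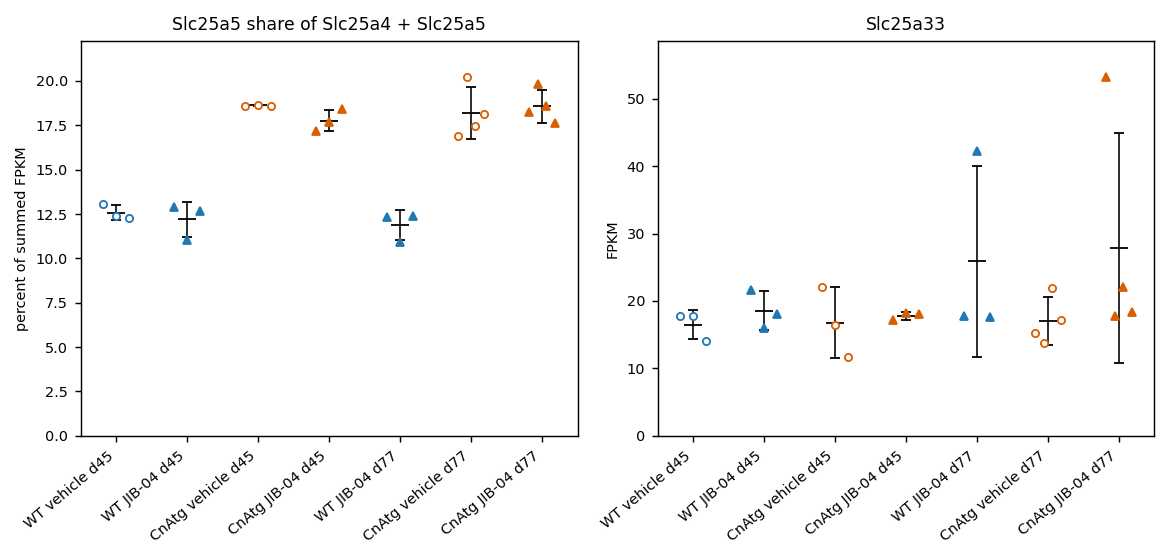
Left, Slc25a5 as percent of the summed FPKM of Slc25a4 and Slc25a5 per library, with group mean and SD; the CnAtg libraries lie at 16.9 to 20.2% and the WT libraries at 10.9 to 13.1%. Right, FPKM of Slc25a33 per library, where 2 of the day-77 JIB-04 libraries stand at 53.3 and 42.3 FPKM and all others below 23.

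Slc25a3 (chromosome 10, 91116574 to 91124059) carries phosphate with a proton into the matrix and can also carry copper. It stood at 921, 841 and 895 FPKM in WT and 813, 816 and 771 in CnAtg under vehicle at day 45. Under JIB-04 the values were 933, 969.8 and 880.0 against 789.7, 782 and 761 at day 45 and 939, 1061 and 975 against 768, 736, 772 and 726 at day 77. Groups did not overlap in any of the 3 contrasts, and the log2 differences were -0.15 (SE 0.052), -0.25 (SE 0.052) and -0.40 (SE 0.059). The vehicle difference had an adjusted p of 0.0438 (limma) and did not pass without WT replicate 1 or 3 or CnAtg replicate 1, 2 or 3 (adjusted p 0.0641 to 0.146). Its direction also depended on scaling: on the TPM scale the log2 difference was 0.12 under vehicle and 0.13 under JIB-04 at day 45 and -0.01 at day 77, none called (day-45 adjusted p 0.183 and 0.153, limma). As a share of all Slc25a FPKM, Slc25a4 made 42.5 to 45.2% in WT and 35.8 to 39.05% in CnAtg libraries.

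Fatty acid oxidation depends on Slc25a20 (chromosome 9, 108662088 to 108684641), which brings acylcarnitine into the matrix in exchange for free carnitine. WT libraries stood at 89.8, 87.03 and 101 FPKM under vehicle and 105, 94.7 and 118 under JIB-04 at day 45, and at 109.7, 136 and 114 at day 77. CnAtg libraries stood at 69.8, 59.3 and 60.5 under vehicle and at 64.9, 74.3 and 63.4 under JIB-04 at day 45, and at 62.03, 67.5, 65.5 and 75.9 under vehicle and 76.98, 61.1, 69.3 and 57.97 under JIB-04 at day 77. No CnAtg library reached the lowest WT value. The log2 differences were -0.54 (SE 0.097), -0.63 (SE 0.097) and -0.85 (SE 0.11), with adjusted p of 0.000965, 0.000329 and 8.85e-05 (limma). On the TPM scale they stayed below 0 but the 2 day-45 calls ended (log2 -0.28 and -0.26, adjusted p 0.0875 and 0.105, limma).

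Of 6 carnitine shuttle genes (Cpt1a, Cpt1b, Cpt1c, Cpt2, Crat and Crot), 3 were lower and 0 higher under vehicle at day 45 (median -0.23), 4 and 0 under JIB-04 at day 45 and 3 and 0 at day 77. Cpt2, which rebuilds acyl-CoA in the matrix, and Crat, which makes acetylcarnitine, were lower in all 3 contrasts (log2 -0.34, -0.33 and -0.53 for Cpt2 and -0.32, -0.39 and -0.59 for Crat) as deposited. With TPM scaling Cpt2 was called in none (-0.08, 0.05 and -0.14) and Crat at day 77 only (-0.06, -0.01 and -0.21), and the list's calls in the 3 contrasts were 2, 2 and 1 higher and 0, 0 and 1 lower (medians 0.01, 0.11 and 0.00).

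The 3 di- and tricarboxylate carriers that passed the level went apart. Slc25a11 (chromosome 11, 70644196 to 70647479), which exchanges matrix 2-oxoglutarate for malate, stood at 282, 256 and 282 FPKM in WT and 210.4, 208 and 208 in CnAtg under vehicle at day 45. At day 77 under JIB-04 it stood at 299, 319 and 309 in WT and 214, 184, 203 and 186 in CnAtg. The genotypes did not overlap in any contrast, with log2 differences of -0.39 (SE 0.049), -0.47 (SE 0.049) and -0.65 (SE 0.060) (adjusted p 8.32e-05, 1.95e-05 and 7.58e-06, limma). On the TPM scale the day-45 differences were -0.12 and -0.10 and did not pass (adjusted p 0.267 and 0.372), while the day-77 call held. Rnf167 overlaps 8.92% of its exon bases, and the libraries do not keep strand.

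Slc25a10, which exchanges malate or succinate for phosphate, stood at 9.18, 7.94 and 7.25 FPKM in WT and 6.09, 5.36 and 6.85 in CnAtg under vehicle at day 45. The groups did not overlap (log2 difference -0.36, SE 0.11, adjusted p = 0.0247, limma), but without WT replicate 1 or CnAtg replicate 1 or 2 the adjusted p was 0.0599 to 0.0937. Under JIB-04 the differences were -0.47 (SE 0.11) at day 45 and -0.61 (SE 0.13) at day 77, and on the TPM scale it passed in none of the 3. Slc25a1, which exports citrate to the cytosol for lipid synthesis, was the one member of the class called higher: 7.04, 6.11 and 3.92 FPKM in CnAtg against 3.03, 4.39 and 3.23 in WT under vehicle at day 45, with groups that overlap (log2 0.54, SE 0.18, adjusted p = 0.0352, limma). That call ended without WT replicate 1 or 3 or CnAtg replicate 1 or 2 (adjusted p 0.101 to 0.138). It also ended with median-ratio scaling (0.0612), quantile normalization (0.0652), no filter (0.0887) and only the compared groups in the fit (0.0661, limma). Slc25a1 was also higher at day 77 (log2 0.48, SE 0.14, adjusted p = 0.0171, limma), though not without WT replicate 1 or 2 (adjusted p 0.0652 and 0.0786), and did not pass under JIB-04 at day 45 (0.45, SE 0.18, adjusted p = 0.0699). The day-45 JIB-04 difference did pass with all 23 libraries (0.0473) or only the compared groups in the fit (0.0305). It passed too with mitochondrially encoded and hemoglobin genes left out (0.0129, limma).

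Among the 9 amino acid and glutathione carriers, both aspartate/glutamate carriers were lower. Slc25a12 (chromosome 2, 71271063 to 71367749) moves aspartate out of the matrix in the malate-aspartate shuttle. It stood at 97.98, 88.8 and 90.4 FPKM in WT and 75.5, 70.4 and 69.6 in CnAtg under vehicle at day 45, and under JIB-04 at 97.5, 96.1 and 95.7 against 70.1, 69.2 and 68.9. At day 77 it stood at 106, 97.8 and 97.9 in WT JIB-04, 70.9, 68.5, 69.1 and 66.8 in CnAtg vehicle and 73.4, 68.4, 70.8 and 63.1 in CnAtg JIB-04. All 14 CnAtg libraries were below the 9 WT libraries, and the log2 differences were -0.36 (SE 0.050), -0.47 (SE 0.050) and -0.54 (SE 0.057), with adjusted p of 0.000182, 2.59e-05 and 2.33e-05 (limma). Slc25a13 (citrin), its paralog, showed log2 differences of -0.31, -0.49 and -0.51. On the TPM scale only the day-77 call of Slc25a12 held among these 6 differences, and each remained below 0.

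Of the malate-aspartate shuttle enzymes Got1, Got2, Mdh1 and Mdh2, 3 passed downwards under vehicle at day 45 (median -0.26), 3 under JIB-04 at day 45 (median -0.31) and 4 at day 77 (median -0.44). Got2, the matrix aspartate aminotransferase, gave log2 differences of -0.36, -0.46 and -0.57, and Mdh2, the matrix malate dehydrogenase, -0.29, -0.36 and -0.50. Got1, the cytosolic aminotransferase, did not pass at day 45 (-0.06 and -0.10). With TPM scaling 0, 1 and 0 higher and 0, 0 and 1 lower were called in the 3 contrasts (medians 0.01, 0.07 and -0.05), with Got1 the one higher and Got2 the one lower.

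Slc25a44, which carries branched-chain amino acids, went up. It stood at 8.18, 8.34 and 7.50 FPKM in WT and 10.2, 9.67 and 10.3 in CnAtg under vehicle at day 45. Under JIB-04 it stood at 8.44, 8.53 and 7.50 against 9.67, 10.1 and 10.5 at day 45 and 8.47, 7.60 and 8.03 against 9.87, 10.8, 10.03 and 10.5 at day 77. The genotypes did not overlap in any contrast, the log2 differences were 0.29 (SE 0.067), 0.28 (SE 0.067) and 0.32 (SE 0.067), and all 3 calls held under every scaling tried and without each library in turn.

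Slc25a39 and Slc25a40, paralogs linked to mitochondrial glutathione import, differed in level. Slc25a39 averaged 54.4 ± 2.88 FPKM (SD, n = 3) in WT and 57.5 ± 2.83 FPKM (SD, n = 3) in CnAtg under vehicle and did not pass at day 45; at day 77 it was lower (log2 -0.24, SE 0.053, adjusted p = 0.00338), but 0.14 on the TPM scale (adjusted p = 0.0646, limma). Slc25a40 stood at 3.59, 3.59 and 3.56 FPKM in WT and 4.20, 5.24 and 5.53 in CnAtg under vehicle at day 45, with no overlap (log2 0.38, SE 0.099, adjusted p = 0.0105, limma). Under JIB-04 at day 45 the difference was -0.05, SE 0.099, adjusted p = 0.74. The interaction of transgene and JIB-04 for Slc25a40 was -0.43 (SE 0.14) with an unadjusted p of 0.011 and an adjusted p of 0.999 (limma). The day-77 difference of Slc25a40 (0.26, SE 0.092, adjusted p = 0.0371) was not called without WT replicate 1 or 2 or CnAtg replicate 1, 2 or 3 (adjusted p 0.0506 to 0.134, limma). Slc25a22 (glutamate) and Slc25a29 (basic amino acids) were lower at day 77, with differences of -0.46 and -0.31 (adjusted p 0.0494 and 0.045, limma). At day 45 the differences were -0.33 under vehicle and -0.34 under JIB-04 for Slc25a22, and -0.26 and -0.23 for Slc25a29, and did not pass as deposited. Slc25a29 did pass under vehicle with median-ratio scaling (adjusted p = 0.0326, limma) and with quantile normalization (0.0323), and Slc25a22 under JIB-04 without WT or CnAtg replicate 1 (0.0334 and 0.0428) and with sex as a covariate (0.0449). The day-77 Slc25a22 call ended without WT replicate 1 or 3 or CnAtg replicate 1, 3 or 4 (adjusted p 0.0536 to 0.207) and on the TPM scale (-0.09). That of Slc25a29 ended without WT replicate 1 or 3 or CnAtg replicate 1, 2 or 4 (adjusted p 0.0813 to 0.152), and on the TPM scale the difference was 0.02. Slc25a15 (ornithine) and Slc25a38 (glycine for heme synthesis) passed in none.

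Of the 9 carriers of cofactors and other nucleotides, Slc25a42 (chromosome 8, 70184340 to 70212305), which brings in coenzyme A, had the highest mean level. It stood at 33.7, 31.4 and 37.4 FPKM in WT and 29.6, 25.01 and 28.3 in CnAtg under vehicle at day 45, and at 38.7, 42.1 and 44.7 against 27.3, 28.4 and 29.8 under JIB-04. At day 77 it stood at 41.7, 39.8 and 46.2 in WT JIB-04 and 27.9, 24.2, 27.1 and 24.1 in CnAtg JIB-04. Genotypes did not overlap, and the log2 differences were -0.29 (SE 0.083), -0.54 (SE 0.083) and -0.70 (SE 0.070). The vehicle call (adjusted p = 0.0153) ended without WT replicate 3 or CnAtg replicate 2 (adjusted p 0.062 and 0.0644, limma) and on the TPM scale (-0.04), which also ended the day-45 JIB-04 call (-0.17).

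Slc25a26, which imports S-adenosylmethionine for methylation in the matrix, was lower in all 3 (log2 -0.30, -0.33 and -0.40). The vehicle call ended without WT replicate 1 or 3 or CnAtg replicate 1 (adjusted p 0.0611 to 0.0868) and the day-45 JIB-04 call without CnAtg replicate 1 (adjusted p = 0.0538), and on the TPM scale none of the 3 was called (-0.05, 0.02 and -0.04).

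Slc25a36 (chromosome 9, 97074961 to 97111157), a carrier of pyrimidine nucleotides used for mitochondrial RNA and DNA, had the largest rise under vehicle at day 45 among the 39. WT libraries stood at 13.2, 13.8 and 16.01 FPKM under vehicle and 10.9, 14.1 and 11.8 under JIB-04 at day 45, and at 15.5, 15.6 and 14.1 at day 77. CnAtg libraries stood at 22.6, 27.7 and 23.5 under vehicle and 19.7, 24.6 and 18.6 under JIB-04 at day 45, and at 20.7, 21.5, 21.1 and 25.4 under vehicle and 21.8, 24.7, 22.97 and 22.2 under JIB-04 at day 77. Each CnAtg library exceeded each WT library. The log2 differences were 0.74 (SE 0.12), 0.73 (SE 0.12) and 0.57 (SE 0.077), with adjusted p of 0.000706, 0.000797 and 0.000134 (limma), and all 3 held under every alternative run. The gene model Gm13217 holds 11.8% of the 50-base windows of its transcript.

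Its paralog Slc25a33, also a pyrimidine nucleotide carrier, passed in no contrast (log2 -0.01, -0.05 and 0.07). It is described because of its spread, after its values were seen. At day 77 it stood at 17.7, 42.3 and 17.7 FPKM in WT JIB-04 and 53.3, 17.7, 22.1 and 18.4 in CnAtg JIB-04. WT JIB-04 replicate 2 and CnAtg JIB-04 replicate 1 were the 2 high libraries, and CnAtg vehicle at day 77 stood at 15.2, 13.8, 21.99 and 17.2. The gene Gm13068 overlaps 14.9% of its exon bases. Slc25a51, the NAD+ carrier, was higher under JIB-04 at day 45 (log2 0.26, SE 0.068, adjusted p = 0.00951, limma) and did not pass in the other contrasts (0.07 and 0.07). Slc25a32 (folate and FAD) passed in that contrast too (0.27, SE 0.084, adjusted p = 0.0237), and Slc25a16, linked to coenzyme A, was lower at day 77 (-0.22, SE 0.075, adjusted p = 0.0374, limma; 0.14 on the TPM scale). At day 45 Slc25a16 differed by -0.18 under vehicle, which passed without CnAtg replicate 1 (adjusted p = 0.0323, limma), and by -0.20 under JIB-04. Slc25a32 did not pass as deposited under vehicle (0.15) or at day 77 (0.16). The Slc25a32 call ended without WT replicate 2 or 3 or CnAtg replicate 1 or 2 (adjusted p 0.0584 to 0.0885), and that of Slc25a16 without WT replicate 2 or 3 or CnAtg replicate 2, 3 or 4 (adjusted p 0.0586 to 0.126). Slc25a17, a peroxisomal carrier, passed in none.

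Iron enters the matrix through the mitoferrins. Slc25a28 (mitoferrin 2), the more abundant, stood at 16.8, 14.9 and 15.7 FPKM in WT and 14.3, 13.8 and 14.4 in CnAtg under vehicle at day 45. The difference did not pass (log2 -0.15, SE 0.085, adjusted p = 0.203, limma). At day 77 under JIB-04 it stood at 19.1, 21.2 and 20.01 in WT and 14.6, 14.2, 14.9 and 14.7 in CnAtg (log2 -0.44, SE 0.069, adjusted p = 0.000419, limma), a call that ended on the TPM scale (-0.07). Slc25a37 (mitoferrin 1), best known from red cell precursors, was lower in all 3 contrasts (-0.23, -0.40 and -0.38). Its vehicle call (adjusted p = 0.0416, limma) ended without WT replicate 1 or 3 or CnAtg replicate 1, 2 or 3 (adjusted p 0.0605 to 0.151), and the TPM scale ended all 3 (-0.01, -0.08 and -0.06). The erythroid marker list (among them the hemoglobin genes and Alas2) had 0 of 6 tested genes called in these contrasts by limma, with summed levels of 2203 to 2913 FPKM in WT vehicle and 1224 to 2984 FPKM in CnAtg vehicle at day 45. At day 77 the sums were 5057 to 8224 FPKM in WT JIB-04 and 5733 to 16317 FPKM in CnAtg JIB-04. Its part in the mitoferrin values was not tested.

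Of 10 other iron and heme genes, 2 were higher and 1 lower under vehicle at day 45 (median 0.04), 2 and 2 under JIB-04 at day 45 and 3 and 3 at day 77. Iscu, the scaffold of iron-sulfur cluster assembly, was higher in all 3 (log2 0.63, 0.49 and 0.45), also on the TPM scale (0.90, 0.86 and 0.83), where 5, 6 and 5 higher and 0, 0 and 1 lower were called.

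The uncoupling-protein-like members split. Slc25a27 (UCP4) stood at 2.38, 2.40 and 1.98 FPKM in WT and 3.38, 3.15 and 2.75 in CnAtg under vehicle at day 45, with no overlap (log2 0.33, SE 0.091, adjusted p = 0.0132, limma). It was also higher under JIB-04 at day 45 (0.33) and did not pass at day 77 (0.16). The vehicle call ended without WT replicate 3 or CnAtg replicate 1 (adjusted p 0.0548 and 0.0566), and the JIB-04 call without WT replicate 3 or CnAtg replicate 3 (adjusted p 0.0507 and 0.051). Slc25a30 stood at 3.02, 3.00 and 3.28 FPKM in WT and 2.87, 1.70 and 2.19 in CnAtg, again apart (log2 -0.35, SE 0.13, adjusted p = 0.0463, limma). Its vehicle call ended without WT replicate 1, 2 or 3 or CnAtg replicate 2 or 3 (adjusted p 0.0772 to 0.17). Slc25a30 was not called under JIB-04 at day 45, and was lower again at day 77 (-0.48, SE 0.10, adjusted p = 0.00272, limma). Both calls ended on the TPM scale (-0.18 and -0.22). Slc25a14 passed in none.

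Slc25a46, in the outer membrane and linked to fission and lipid transfer, stood at 16.4, 16.9 and 16.7 FPKM in WT and 19.7, 19.5 and 18.2 in CnAtg under vehicle at day 45 (log2 0.19, SE 0.065, adjusted p = 0.0378, limma). The groups did not overlap, and the call ended without WT replicate 1, 2 or 3 or CnAtg replicate 1 or 2 (adjusted p 0.0602 to 0.116). Under JIB-04 Slc25a46 was not called as deposited at day 45 (0.10) or day 77 (0.15). Both differences passed with mitochondrially encoded and hemoglobin genes left out (adjusted p 0.00653 and 0.000321, limma) and on the TPM scale, and the day-77 one in further alternatives.

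Of 5 members with no settled substrate, Slc25a34 (chromosome 4, 141618824 to 141623821) was the most abundant. WT libraries stood at 78.9, 81.2 and 72.6 FPKM under vehicle and 86.5, 83.7 and 86.2 under JIB-04 at day 45, and at 74.3, 105 and 90.1 at day 77. CnAtg libraries stood at 57.5, 47.8 and 52.7 under vehicle and at 59.8, 64.03 and 64.8 under JIB-04 at day 45, and at 59.8, 66.6, 69.1 and 65.3 under vehicle and 79.4, 59.6, 63.8 and 59.3 under JIB-04 at day 77. The genotypes were apart in both day-45 contrasts and overlapped at day 77. The log2 differences were -0.55 (SE 0.069), -0.44 (SE 0.069) and -0.45 (SE 0.12), and the day-77 call ended without WT replicate 2 (adjusted p = 0.055, limma). Under vehicle the call held in every alternative run, and under JIB-04 both ended on the TPM scale (-0.06 at each age).

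Slc25a35 went the other way: 4.34, 3.33 and 4.54 FPKM in WT and 6.27, 6.36 and 5.63 in CnAtg under vehicle at day 45, without overlap (log2 0.49, SE 0.13, adjusted p = 0.0108, limma). It was higher by 0.38 and 0.40 under JIB-04 at days 45 and 77. The day-45 JIB-04 call ended without WT replicate 2 or 3 or CnAtg replicate 1 or 2 (adjusted p 0.0812 to 0.125), and the day-77 call without WT replicate 2 (0.0566). Rangrf overlaps 31.3% of the exon bases of Slc25a35, and without strand the reads of the pair cannot be told apart. Slc25a53, near the level for inclusion, stood at 0.672, 0.734 and 0.858 FPKM in WT and 1.45, 1.86 and 0.963 in CnAtg under vehicle (log2 0.45, SE 0.15, adjusted p = 0.0338, limma), at 1.62, 1.93 and 1.34 in WT under JIB-04, and passed in no other contrast. Its call ended without WT replicate 1, 2 or 3 or CnAtg replicate 1 or 2 (adjusted p 0.0518 to 0.128). Slc25a45 and Slc25a47 passed in none.

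Proteins that work beside the carriers were counted in the same fits, to be read beside the 19.9 to 23.3% of all features higher and 15.9 to 22.1% lower. Those shares are as deposited, and the list counts on the TPM scale are given without such a share. Of 8 tested genes that handle adenine nucleotides and phosphocreatine, 6, 8 and 7 were lower and 0 higher in the 3 contrasts (medians -0.38, -0.40 and -0.52). Ckmt2, the mitochondrial creatine kinase that sits beside the ADP/ATP carrier, gave -0.35, -0.41 and -0.61, and Ckm, the cytosolic enzyme, -0.65, -0.72 and -0.85. With TPM scaling 0, 0 and 0 higher and 3, 3 and 4 lower were called (medians -0.12, -0.02 and -0.13); Ckm was called in all 3 contrasts (-0.38, -0.34 and -0.46) and Ckmt2 at day 77 only (-0.09, -0.03 and -0.23). Of 4 tested carrier-family genes with other symbols, 3, 4 and 4 were lower: Ucp3 (-1.04, -1.05 and -1.34), Ucp2 (-0.76, -0.91 and -0.83) and Mtch2 (-0.34, -0.40 and -0.48) in all 3, and Mtch1 in both under JIB-04 (-0.22 and -0.25). Of these the TPM scale left the vehicle call of Ucp3 (-0.82, -0.70 and -0.98 in the 3 contrasts; Ucp2 -0.51, -0.55 and -0.45, Mtch2 -0.08, -0.03 and -0.09), and Mtch1 turned to 0.12, 0.15 and 0.14. Of 9 genes that import carriers into the inner membrane, 1 was higher and 0 lower under vehicle at day 45 (Tomm70a, the receptor for carriers, 0.26), 0 and 0 under JIB-04 at day 45 by limma, and 1 and 2 at day 77; on the TPM scale the calls in the 3 contrasts were 4, 3 and 8 higher and 0, 0 and 0 lower.

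Of 18 other mitochondrial transport genes, 3 were higher and 7 lower under vehicle at day 45, 2 and 5 under JIB-04 at day 45 and 2 and 8 at day 77, against 6, 5 and 5 higher and 0, 0 and 2 lower on the TPM scale. The pyruvate carrier subunits Mpc1 (-0.33, -0.44 and -0.58) and Mpc2 (-0.43, -0.54 and -0.65) and the outer membrane channels Vdac1, Vdac2 and Vdac3 were lower in all 3 as deposited. Both Mpc calls held on the TPM scale at day 77 only (Mpc1 -0.07, -0.06 and -0.19, Mpc2 -0.17, -0.17 and -0.26) and no Vdac gene was called there (differences of -0.09 to 0.18). Micu2 (1.02, 0.93 and 0.83), which regulates the calcium uniporter, was higher in all 3 on either scale. Of 11 regulators of mitochondrial biogenesis, 0, 1 and 1 were higher and 3, 3 and 2 lower. The lower counts are near the 15.9, 18.1 and 22.1% of all features that were lower, and on the TPM scale the calls were 2, 5 and 6 higher and 0, 0 and 0 lower. Esrra, an estrogen-related receptor that binds many genes of energy metabolism, was lower in all 3 as deposited (-0.35, -0.40 and -0.46) and was called in none on the TPM scale (-0.08, -0.02 and -0.08).

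Markers of cell types moved with genotype too, and their part in the carrier differences was not tested. Of 10 endothelial markers, 10, 9 and 9 were lower in the 3 contrasts, with summed levels of 371 to 449 FPKM over the WT groups and 188 to 294 FPKM over the CnAtg groups. Of 8 fibroblast markers, 7, 7 and 5 were higher, with sums of 328 to 445 FPKM in WT and 466 to 767 FPKM in CnAtg. Of 8 heart muscle markers, 1 was higher and 4 lower in each contrast, with sums of 14363 to 16904 FPKM in WT and 11269 to 13108 FPKM in CnAtg, so the labelled tissue was present in every library. With TPM scaling the calls in the 3 contrasts were 0, 0 and 0 higher and 8, 6 and 8 lower for endothelial markers. They were 8, 8 and 8 higher and 0, 0 and 0 lower for fibroblast and 2, 3 and 4 higher and 1, 0 and 0 lower for heart muscle markers, so the direction of the last depended on scaling. Smooth muscle and pericyte markers gave 1 higher and 3, 4 and 4 lower of 7 or 8 tested, while their sums were 263 to 398 FPKM in WT and 372 to 665 FPKM in CnAtg. The one higher was Acta2, of smooth muscle and activated fibroblasts (log2 2.29, 2.43 and 2.38); without it the sums were 231 to 274 FPKM in WT and 119 to 179 FPKM in CnAtg, so it alone set the direction of the sum. Macrophage markers gave 1, 0 and 0 higher and 0, 0 and 1 lower of 6, and the 1 adipocyte gene tested, Fabp4, which endothelial cells also express, was lower in all 3. No marker was listed at 0 FPKM in all 23 libraries.

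JIB-04 against vehicle asked whether the drug changed these carriers. No carrier passed in CnAtg hearts at day 45, in WT hearts at day 45 or in CnAtg hearts at day 77 by limma. An unadjusted p under 0.05 (limma) was found for 2, 2 and 1 of the 39. Among all features it was found for 585 of 13289, 576 of 13289 and 984 of 13212. The drug called 0.00753%, 0% and 0% of all features in these 3 comparisons, so the count of 0 carriers is near the background. Carrier medians were 0.01, 0.05 and -0.04, against -0.03, 0.00 and -0.03 for all features.

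The intervals show what size of drug effect the libraries could hide. For Slc25a4 the JIB-04 difference was 0.04 (95% interval -0.09 to 0.16) in CnAtg and 0.09 (95% interval -0.03 to 0.22) in WT at day 45, and -0.03 (95% interval -0.15 to 0.09) in CnAtg at day 77. For Slc25a20 it was 0.10 (95% interval -0.12 to 0.31), 0.19 (95% interval -0.02 to 0.40) and -0.03 (95% interval -0.25 to 0.18). For Slc25a36 it was -0.22 (95% interval -0.50 to 0.05), -0.21 (95% interval -0.49 to 0.06) and 0.05 (95% interval -0.11 to 0.21). The transgene difference of Slc25a4 under vehicle at day 45 (-0.53) lies outside all 3 of its drug intervals. Over the 39 the median distance from the difference to the end of its interval was 0.20, 0.20 and 0.21. These intervals are not adjusted for the number of features tested, so this distance is not the detection limit of the adjusted test. Differences between JIB-04 and vehicle of that size and larger could go uncalled, as that of Slc25a34 in CnAtg at day 45 did. Whether the Slc25a34 difference was a change made by the drug was not shown.

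The carriers with an unadjusted p under 0.05 for JIB-04 were Slc25a34 and Slc25a40 in CnAtg at day 45, Slc25a42 and Slc25a53 in WT at day 45, and Slc25a39 in CnAtg at day 77. Slc25a34, which was lower in CnAtg, was 0.26 higher with JIB-04 in CnAtg at day 45 (SE 0.069, unadjusted p = 0.00342, adjusted p = 0.999, limma). At day 77 the same difference had a 95% interval of -0.25 to 0.25. The interaction of transgene and drug at day 45 called no carrier and 0.00753% of all features. An unadjusted p under 0.05 (limma) was found for 2 carriers, Slc25a40 and Slc25a53, and for 498 of all 13289 features.

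**Figure D5:**
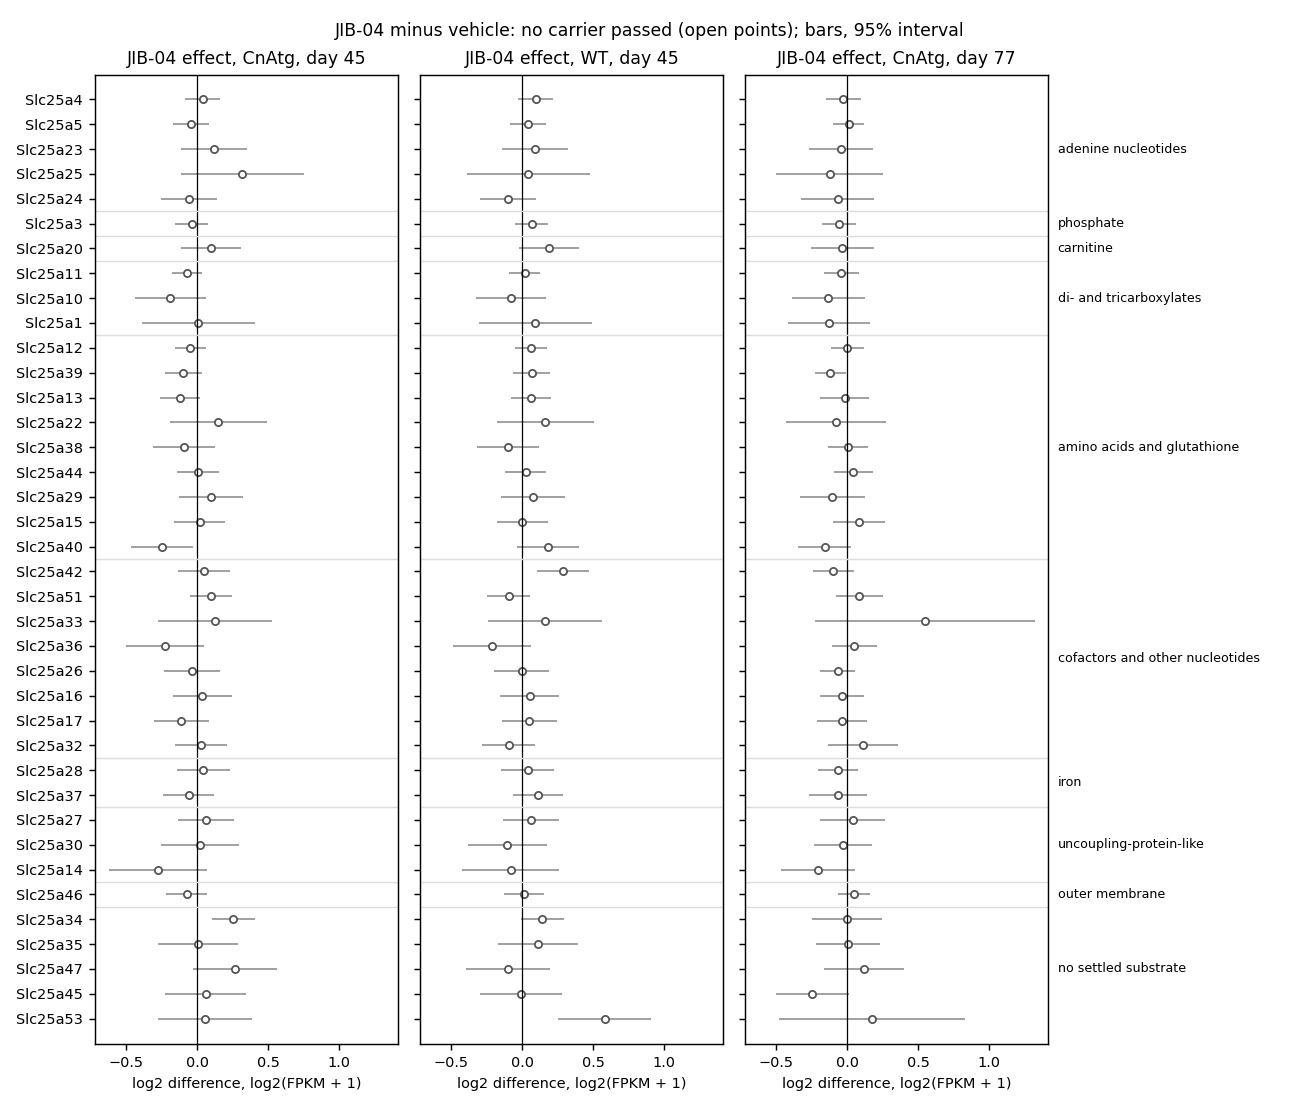
Log2 difference of JIB-04 minus vehicle on the log2(FPKM + 1) scale for 38 carriers (rows, grouped by substrate) in CnAtg at day 45, WT at day 45 and CnAtg at day 77, with 95% intervals. No carrier passed at an adjusted p under 0.05, and most intervals include 0.

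Day 77 against day 45 also called no carrier by limma. This held in CnAtg vehicle (0.0365% of all features called), in CnAtg JIB-04 (0.0365%) and in WT JIB-04 (0.328%). It also held for the interaction of transgene and age under JIB-04 (0.00729%). An unadjusted p under 0.05 (limma) was found for 3, 2, 6 and 3 carriers in that order. Among all 13710 features it was found for 996, 1076, 2077 and 947. The smallest adjusted p values were those of Slc25a28 and Slc25a39 in WT JIB-04, with differences of 0.29 and 0.20 (adjusted p 0.0937 and 0.0943, limma). Slc25a34 in CnAtg vehicle differed by 0.31 (95% interval 0.09 to 0.52, adjusted p = 0.476), and Slc25a51 by -0.19 in CnAtg vehicle and -0.20 in CnAtg JIB-04 (adjusted p 0.554 and 0.517, limma). For Slc25a4 the age differences were 0.04 and -0.03 in the CnAtg groups and 0.05 in WT JIB-04, and the interaction was -0.08 (95% interval -0.25 to 0.08). No carrier's transgene difference was shown to change between the 2 ages by this test of the difference itself.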

How the data were processed

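RNA was extracted from hearts with Trizol and sequenced after a non-stranded mRNA library kit, per the labels' protocols. Per the submitters' processing notes, the build was GRCm38 and the tools included Cufflinks 2.2.1, GATK 4.1.2, STAR 2.7.1a and Picard. The authors deposited 1 log2 FPKM value per feature and library, per the file headers. The values fit log2(FPKM + 1), so they were tested as deposited and turned back to FPKM for levels, where the planned design had assumed plain FPKM. Sequencing depth is unknown, and no count test was possible. The deposited table holds 43154 features, after 6 blank lines were dropped, and 58 symbols are repeated. Of the mitochondrially encoded genes, mt-Co3, mt-Atp8 and mt-Atp6 were left out, because 13 libraries list them at 0.

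Features at 1 FPKM or more in at least 3 libraries of a fit were tested with limma 3.58.1 (R 4.3.3, trended variance, Benjamini-Hochberg over all features tested, adjusted p under 0.05). Each fit held every library of an age (12 at day 45, 11 at day 77), or all 23 for age differences. The script was tested on simulated data. Members and lists were chosen with earlier results of these data known. Genes given in full were the most abundant of each substrate class, up to 8 in each direction with the largest vehicle day-45 difference among called members whose groups did not overlap, and any member called for drug or age. Scalings of the gene lists were added after the data were seen. Some carriers and list genes are not reported here. Slc25a5 and Slc25a33 were added after their values were seen.

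Alternatives were a pseudocount of 0.1, no filter, median-ratio and quantile scaling, mitochondrially encoded and hemoglobin genes left out, all 23 libraries or only the compared groups in the fit, sex (from Xist and Ddx3y) as a covariate, a replicate block, and each library left out. A TPM scale was added after seeing that FPKM sums differed between genotypes. Promoters are from RefSeq, whose starts differ from the deposited gene boundaries, for some carriers by much of a window.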

Additional observations from a re-analysis of the deposited data

Results flagged for a closer look

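In groups of 4 libraries, 7 of 78 carrier values stood far from the other 3 by Dixon's criterion, which chance alone meets in about 1 in 20 groups, and 6 of them are given here. Slc25a33 was 53.3 FPKM in CnAtg JIB-04 day 77 replicate 1, against 17.7 to 22.1 in the other 3. Slc25a53 was 3.54 FPKM in CnAtg vehicle day 77 replicate 4 (others 1.08 to 1.45). Slc25a30 was 2.00 FPKM in CnAtg vehicle day 77 replicate 1 (others 2.26 to 2.29). Among the other CnAtg JIB-04 day 77 libraries, Slc25a38 was 15.1 FPKM in replicate 2 (others 14.6), Slc25a47 was 4.26 FPKM in replicate 3 (others 3.20 to 3.26) and Slc25a35 was 5.48 FPKM in replicate 4 (others 5.80 to 5.83).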

How the results depend on the processing

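Over the alternatives other than removing the filter, the carrier median minus that of all features kept its sign, at -0.23 to -0.18 under vehicle at day 45, -0.19 to -0.11 under JIB-04 at day 45 and -0.22 to -0.11 at day 77; with no filter, over all 47 members, it was -0.09, -0.12 and -0.10. The counts of calls did depend on scaling, and the shares of all features called under each scaling are not given beside them. For CnAtg against WT under vehicle at day 45, the higher count of 8 was 5 with median-ratio scaling, 5 with quantile normalization, 5 with only the compared groups and 14 on the TPM scale, and the lower count of 13 was 6 without mitochondrial and hemoglobin genes and 3 on the TPM scale. Under JIB-04 at day 45, the higher count of 7 was 4 with quantile normalization, 11 without mitochondrial and hemoglobin genes and 14 on the TPM scale, and the lower count of 12 was 3 and 1 in the last 2 of these. At day 77, the higher count of 7 was 12 without mitochondrial and hemoglobin genes and 15 on the TPM scale, where the lower count of 18 was 5.

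Single carriers that changed sign on the TPM scale were Slc25a3 under vehicle (0.12) and under JIB-04 at day 45 (0.13), Slc25a26 under JIB-04 at day 45 (0.0228), and Slc25a16 (0.14), Slc25a29 (0.023) and Slc25a39 (0.14) at day 77. Slc25a3 under JIB-04 at day 45 was 0.0003 without mitochondrial and hemoglobin genes. Calls held under every alternative run for 7 of 21 carriers under vehicle at day 45, 4 of 19 under JIB-04 at day 45 and 7 of 25 at day 77. Why the others did not was not tested. Adding sex changed the fits of both ages, so each held libraries of both sexes by Xist and Ddx3y. How the sexes fell across genotypes is not given here. With sex as a covariate, calls ended for 2 of 21 carriers under vehicle and 2 of 19 under JIB-04 at day 45. At day 77 they ended for 4 of 25. Slc25a23 under vehicle, Slc25a22 under JIB-04 at day 45 and Slc25a46 at day 77 were called with it and not as deposited.

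With 1 library left out, the calls under vehicle at day 45 were 13 to 19 in all, 4 to 9 higher and 8 to 12 lower. Under JIB-04 at day 45 they were 15 to 19, 3 to 6 and 12 to 13, and at day 77 they were 19 to 22, 3 to 7 and 15 to 16. The drug, age and interaction comparisons stayed at 0 to 0. With replicate number as a block the calls were 20, 18 and 22, and 0 in the others. Of 64 same-number pairs, 9 had a correlation of deviations over 0.1 (range -0.175 to 0.242). Pairs with different numbers were not computed, so whether the numbers pair the libraries cannot be decided from these values. Depth limits could not be given without counts.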
